A study of Homo sapiens with 6 samples.

Results

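The methionine cycle makes and recycles S-adenosylmethionine, the methyl donor of the cell, and 10 of its genes were examined in SK-N-SH cells given dopamine: MAT2A, MAT2B, METTL16, AHCY, AHCYL1, AHCYL2, MTR, MTRR, MTAP and AMD1. They were taken by symbol from a table of 26789 genes, 1 row for each symbol, and all 10 passed the filter on low values (a mean of 1 FPKM or more), as did 11791 genes in all. FPKM divides the fragments counted on a gene by its length and by the size of the library. The list was drawn up around MAT2A, chosen by its FPKM difference between these same groups. For that reason the differences of the members are described here with their errors and are not put to a test.

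SK-N-SH is a human neuroblastoma line, labelled as wild type in every sample. Of the 6 libraries, 3 came from cells that had dopamine added for 6 h and 3 from cells that had medium alone (control). The unit of the dopamine dose appears to lack its prefix in the labels, and no dose is given here. The design text speaks of SH-SY5Y, a subline of SK-N-SH, whereas each sample is labelled SK-N-SH. Nothing says that the 3 replicates of a group came from separate cultures, so errors and p-values measure the spread between these libraries, which may be technical.

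In this cycle, methionine adenosyltransferase joins methionine to ATP to give S-adenosylmethionine, and methyltransferases, among them the catechol O-methyltransferase that acts on dopamine, turn it into S-adenosylhomocysteine. That product inhibits methyltransferases until AHCY splits it to homocysteine, which methionine synthase remethylates or transsulfuration drains towards cysteine and glutathione. A side branch decarboxylates S-adenosylmethionine to build polyamines and returns the methylthio group to methionine. MAT2A mRNA is itself a known sensor of the methyl donor: METTL16 binds hairpins in its 3′ untranslated region, methylates them when the donor is plentiful, and promotes splicing of a retained intron when it is scarce.

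The METTL16 hairpins are shown because they are the known regulatory sequence of MAT2A mRNA. The letters searched for are those known from the MAT2A hairpins themselves, so matches in MAT2A were given by that choice and the counts in other genes only describe how common the letters are. A search of the longest annotated 3′ untranslated region of each gene (GENCODE release 29, GRCh38, transcript strand) for the letters TACAGANAA found 6 matches in MAT2A, whose region has 1508 bases and lies on the plus strand of chromosome 2. The other 9 members had 0 matches. Of 19146 genes with such a region, 6.34% had at least 1 match and 0.548% at least 2, and MAT2A was the only one with 4 or more. Each match is printed below as DNA letters, 5′ to 3′, with 10 flanking bases on each side in lower case and the match in capitals.
MAT2A site 1: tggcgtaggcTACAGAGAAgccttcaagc
MAT2A site 2: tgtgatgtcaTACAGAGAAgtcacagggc
MAT2A site 3: ctggtgtagcTACAGAGAAaccagcttcc
MAT2A site 4: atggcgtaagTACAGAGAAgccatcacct
MAT2A site 5: caaggtgtccTACAGAAAAaccttgggtt
MAT2A site 6: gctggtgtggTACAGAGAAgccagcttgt

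Sites 1, 2, 3, 4 and 6 carry the same 9 letters, and site 5 has another base at the position left free in the search. The matches began 40, 827, 1012, 1127, 1242 and 1350 bases after the stop codon, so 1 lies near the stop codon and 5 lie in the distal part. When each 29-base window was folded in silico as RNA (ViennaRNA RNAfold), the lowest free energy ran from -8.7 kcal per mol at site 6 to -4.9 at site 4. In sites 4, 5 and 6 all 9 motif bases were unpaired in that fold, in sites 1 and 2 it was 7 of 9, and in site 3 it was 6 of 9. These are letters of the reference and a model of their fold, and the libraries hold no measurement of binding or methylation at them.

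**Figure D1:**
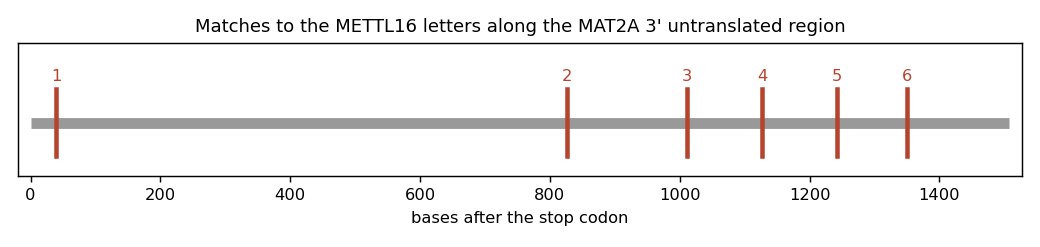
Positions of the 6 matches to TACAGANAA (numbered red marks) along the 1508-base MAT2A 3′ untranslated region (grey bar), in bases after the stop codon on the horizontal axis. The first match begins at base 40 and the other 5 between bases 827 and 1350.

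MAT2A encodes the catalytic subunit of the methionine adenosyltransferase found in most tissues outside adult liver (ENSG00000168906.8, hg19 chromosome 2, 85766288 to 85772403). Its level was 113, 119 and 122 FPKM in dopamine replicates 1, 2 and 3, against 54.5, 51.1 and 56.2 FPKM in control replicates 1, 2 and 3. The groups did not overlap, and the lowest dopamine library lay 56.4 FPKM above the highest control library. The means were 118 ± 4.68 FPKM with dopamine and 53.9 ± 2.59 FPKM in control cells (SD, n = 3 each), a log2 fold change on the log2(FPKM + 0.5) scale of 1.12 (SE 0.07), or 2.17-fold. That was the sixth largest log2 fold change above 0 among the 11791 tested genes. By its mean level MAT2A stood above 97.7% of the tested genes with dopamine and above 93.6% in control cells.

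The annotation lists 6 transcripts of MAT2A, 3 of them with a retained intron. The table has 1 value for the whole gene, so spliced and intron-retaining MAT2A RNA cannot be told apart. The MAT2A interval overlaps that of GGCX, a gene on the other strand, whose mean was 4.81 FPKM with dopamine and 4.65 FPKM in control cells. MAT1A, the liver form of the catalytic subunit, lay below the filter, between 0.0392 and 0.210 FPKM with dopamine and between 0.0262 and 0.134 FPKM in control cells. In bulk RNA of this kind, fewer cells of a type and less RNA per cell cannot be told apart.

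MAT2B encodes the regulatory subunit that binds the MAT2A protein (ENSG00000038274.12, hg19 chromosome 5, 162930120 to 162946342). Its level was 7.75, 8.8 and 10.6 FPKM in dopamine replicates 1, 2 and 3, against 7.91, 7.11 and 6.68 FPKM in control replicates 1, 2 and 3. The groups overlapped, since dopamine replicate 1 lay below control replicate 1, and the log2 fold change was 0.29 (SE 0.12). The FPKM ratio of MAT2A to MAT2B, which dividing a library by 1 factor leaves as it is, was 14.5, 13.5 and 11.6 in dopamine replicates 1, 2 and 3, against 6.89, 7.19 and 8.41 in control replicates 1, 2 and 3. The subunit genes therefore stood further apart in each dopamine library than in any control library, by 0.83 on the log2 scale between the group means.

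METTL16, the methyltransferase that reads the MAT2A hairpins (ENSG00000127804.8, hg19 chromosome 17, 2308856 to 2415185), stood at 3.31, 3.12 and 3.58 FPKM in dopamine replicates 1, 2 and 3, against 3.22, 2.7 and 2.51 FPKM in control replicates 1, 2 and 3. Its groups overlapped, and its log2 fold change was 0.22 (SE 0.12).

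AHCY hydrolyses S-adenosylhomocysteine (ENSG00000101444.8, hg19 chromosome 20, 32868074 to 32899608) and was the only member with a lower mean in dopamine cells. Its level was 55.6, 58.0 and 49.5 FPKM in dopamine replicates 1, 2 and 3, against 59.1, 63.9 and 64.4 FPKM in control replicates 1, 2 and 3. The groups did not overlap, by 1.09 FPKM, and the log2 fold change was -0.20 (SE 0.08). The FPKM ratio of MAT2A to AHCY was 2.03, 2.05 and 2.46 in dopamine replicates 1, 2 and 3, against 0.922, 0.801 and 0.873 in control replicates 1, 2 and 3. MAT2A thus lay above AHCY in each dopamine library and below it in each control library.

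AHCYL1 and AHCYL2 encode AHCY-like proteins known mainly as partners of the inositol trisphosphate receptor and of ion transporters. AHCYL1 (ENSG00000168710.13, hg19 chromosome 1, 110527308 to 110566357) had 18.5, 17.2 and 22.9 FPKM in dopamine replicates 1, 2 and 3, against 17.6, 14.5 and 15.5 FPKM in control replicates 1, 2 and 3. AHCYL2 (ENSG00000158467.12, hg19 chromosome 7, 128864864 to 129070052) had 4.82, 4.15 and 4.98 FPKM in dopamine replicates 1, 2 and 3, against 4.13, 3.39 and 3.42 FPKM in control replicates 1, 2 and 3. The AHCYL1 groups overlapped, whereas the AHCYL2 groups were parted by a gap of only 0.0205 FPKM. The log2 fold changes were 0.28 (SE 0.12) for AHCYL1 and 0.31 (SE 0.12) for AHCYL2, both of the opposite sign to AHCY. A pseudogene on the other strand, RP11-305M3.2, overlaps the AHCYL2 interval and stood at a mean of 3.38 FPKM with dopamine and 3.62 FPKM in control cells. The 1 AHCY pseudogene found in the table by symbol, AHCYP5, stood at a mean of 0.0139 FPKM with dopamine and was listed at 0 in control cells.

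**Figure D2:**
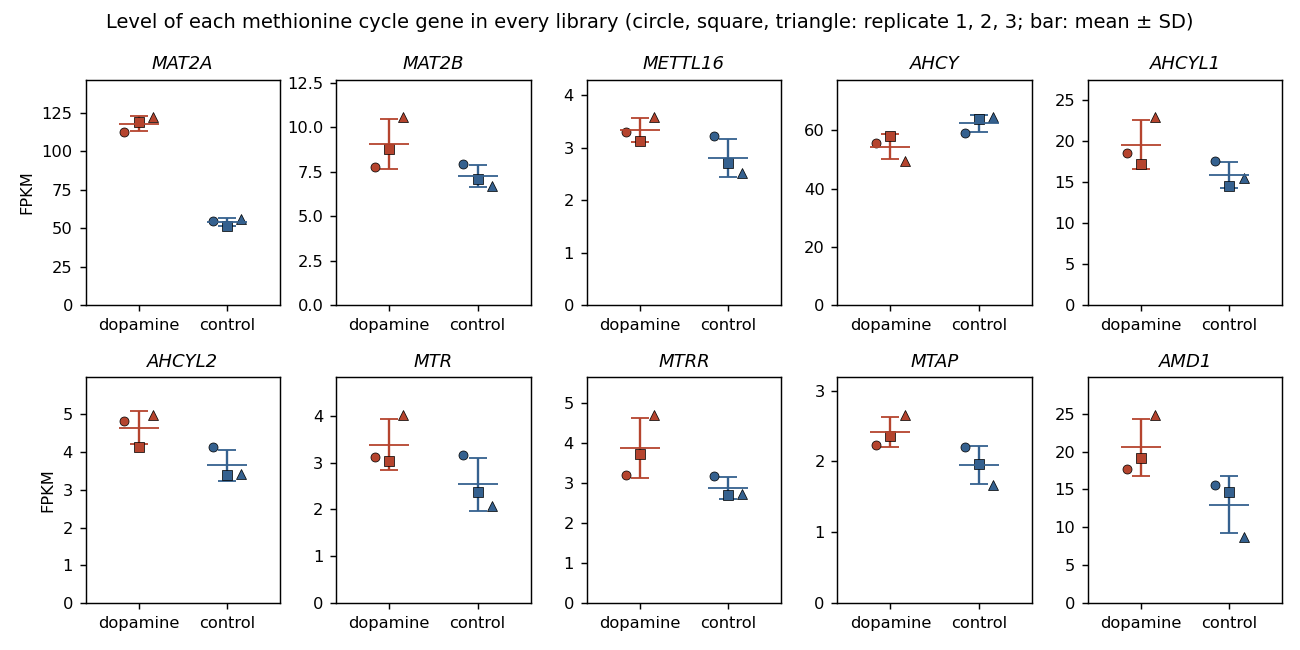
FPKM of each of the 10 members (vertical axes, each from 0) in the 3 dopamine libraries (red, left) and the 3 control libraries (blue, right), with the mean and SD as bars. MAT2A at 113 to 122 against 51.1 to 56.2 FPKM is the member with the widest gap between the groups, and AHCY the one whose dopamine libraries lie lower.

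MTR is methionine synthase, which remethylates homocysteine with a cobalamin cofactor (ENSG00000116984.8, hg19 chromosome 1, 236958610 to 237067281), and MTRR is the reductase that reactivates it (ENSG00000124275.10, hg19 chromosome 5, 7851299 to 7906138). MTR had 3.12, 3.02 and 4.02 FPKM in dopamine replicates 1, 2 and 3, against 3.17, 2.37 and 2.07 FPKM in control replicates 1, 2 and 3. MTRR had 3.22, 3.74 and 4.71 FPKM in dopamine replicates 1, 2 and 3, against 3.19, 2.69 and 2.73 FPKM in control replicates 1, 2 and 3. The MTR groups overlapped through control replicate 1, and those of MTRR were parted by a gap of 0.0253 FPKM. The log2 fold changes were 0.36 (SE 0.16) for MTR and 0.37 (SE 0.14) for MTRR. The MTRR interval overlaps that of FASTKD3 on the other strand, which stood at a mean of 1.48 FPKM with dopamine and 1.10 FPKM in control cells.

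AMD1 makes decarboxylated S-adenosylmethionine, the aminopropyl donor of polyamine synthesis (ENSG00000123505.10, hg19 chromosome 6, 111195973 to 111216916). Its level was 17.7, 19.2 and 24.8 FPKM in dopamine replicates 1, 2 and 3, against 15.6, 14.7 and 8.66 FPKM in control replicates 1, 2 and 3. The groups did not overlap, the lowest dopamine library lying 2.0 FPKM above the highest control library, but control replicate 3 stood well below the other 2 control libraries. AMD1 had the second largest difference of the members, a log2 fold change of 0.67 (SE 0.21), and 0.27 without the libraries numbered 3. MTAP, the phosphorylase that salvages the methylthioadenosine left over from polyamine synthesis (ENSG00000099810.14, hg19 chromosome 9, 21802542 to 21931646), had 2.23, 2.36 and 2.66 FPKM in dopamine replicates 1, 2 and 3, against 2.21, 1.97 and 1.67 FPKM in control replicates 1, 2 and 3. Its groups were parted by a gap of 0.0257 FPKM, and its log2 fold change was 0.26 (SE 0.13).

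FPKM is set per length, so the levels of the members were ranked. The lengths used are not known and the libraries differed in GC trend, so the order across genes is approximate. In dopamine cells the order of the means was MAT2A, AHCY, AMD1, AHCYL1, MAT2B, AHCYL2, MTRR, MTR, METTL16 and MTAP, and in control cells AHCY, MAT2A, AHCYL1, AMD1, MAT2B, AHCYL2, MTRR, METTL16, MTR and MTAP. The ranges of AMD1 and AHCYL1 overlapped in both groups, as did those of MTRR, MTR and METTL16 next to each other in each order. The AHCYL2 and MTRR ranges overlapped with dopamine only, and those of MTR and MTAP in control cells only. The other neighbours did not overlap. Taking the length of the longest annotated transcript, the library depths give about 3300 to 7400 fragments per library for MAT2A and about 180 to 330 for MTRR, the member with the fewest.

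Of the 10 members 1, MAT2A, passed an adjusted p of 0.05 (limma, Benjamini-Hochberg over all tested genes), where 0.102% of all tested genes did so. With sample quality weights 5 of the 10 passed, beside 2706 of the 11791 tested genes. Without control replicate 1 it was 3 of the 10, beside 2177 of the 11791. Since this contrast chose the list, nothing is read from those counts. The number of calls over all genes depended on single libraries. With all 6 libraries 12 genes passed, 10 of them higher with dopamine, whereas quantile normalization gave 27, 18 of them higher. With 1 control library left out the number was 2177 (replicate 1), 3 (replicate 2) or 6 (replicate 3), and with 1 dopamine library left out 6 (replicate 1), 9 (replicate 2) or 7 (replicate 3). The mean was higher with dopamine in 9 of 10 members, and in 7076 of the 11791 tested genes. In 5 members all dopamine libraries lay above all control libraries, against 24.4% of all tested genes, and in 1 all lay below, against 14.1%. The median log2 fold change of the other 9 members was 0.29, and that of all tested genes 0.08.

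**Figure D3:**
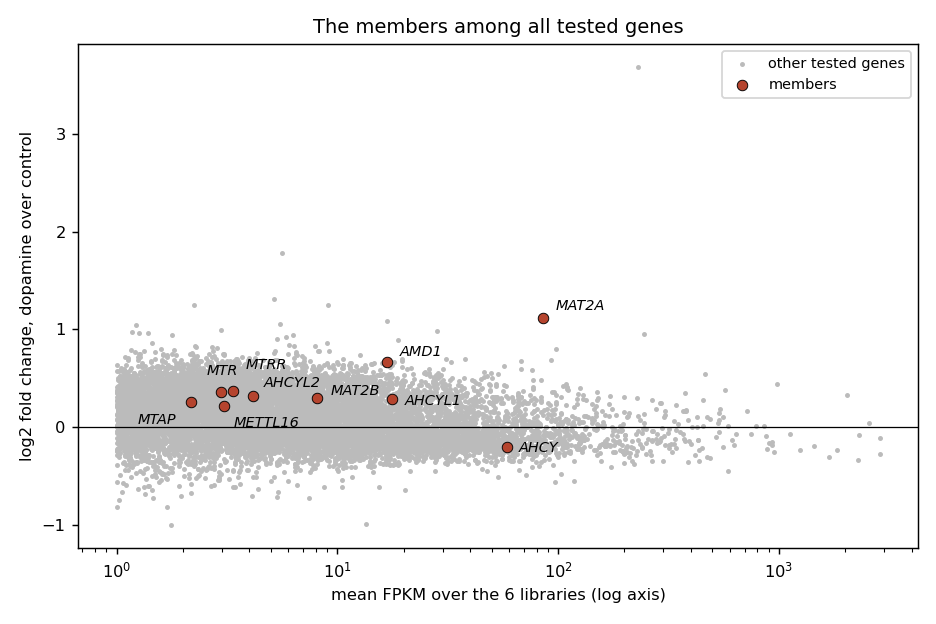
Log2 fold change of dopamine over control (vertical axis) against the mean FPKM over the 6 libraries (horizontal log axis) for the 11791 tested genes (grey) and the 10 members (red). MAT2A, chosen by this same difference, stands at 1.12, AMD1 at 0.67 and the other 8 between -0.2 (AHCY) and 0.37 (MTRR).

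The libraries differed in a way that moved with the groups and touches the smaller differences. Dopamine replicate 3 and control replicate 3 lay at the ends of the first principal component, which took up 66.4% of the variance. The deviation of a library changed, for each 10 points of GC, by -0.03, -0.06 and -0.26 log2 units in dopamine replicates 1, 2 and 3, against 0.02, 0.11 and 0.22 in control replicates 1, 2 and 3. By an exact two-sided permutation test this gave p = 0.1, and 3 against 3 cannot go lower. Within the dopamine group 9 of the 10 members were highest in replicate 3, the exception being AHCY, which was lowest there. AHCY also had the highest GC content of the members, 56.2%, and MAT2B the lowest, 36.4%.

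After a correction of each library for GC content and transcript length, MAT2A had a log2 fold change of 0.89 (SE 0.07). The values of the others moved closer to 0: 0.24 (SE 0.10) for AMD1, 0.14 (SE 0.08) for AHCYL1, 0.12 (SE 0.08) for MTR, 0.10 (SE 0.07) for AHCYL2, 0.06 (SE 0.07) for METTL16, 0.03 (SE 0.08) for MTRR and -0.13 (SE 0.05) for AHCY. MAT2B at -0.14 (SE 0.08) and MTAP at -0.14 (SE 0.09) changed sign. Without replicates 3 of both groups, MAT2A stood at 1.12, as it did with all libraries, while the other 8 with a higher mean stood between 0.11 and 0.27 and AHCY at -0.11. Since the GC trend moved with the groups, GC content and group cannot be told apart for these genes.

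**Figure D4:**
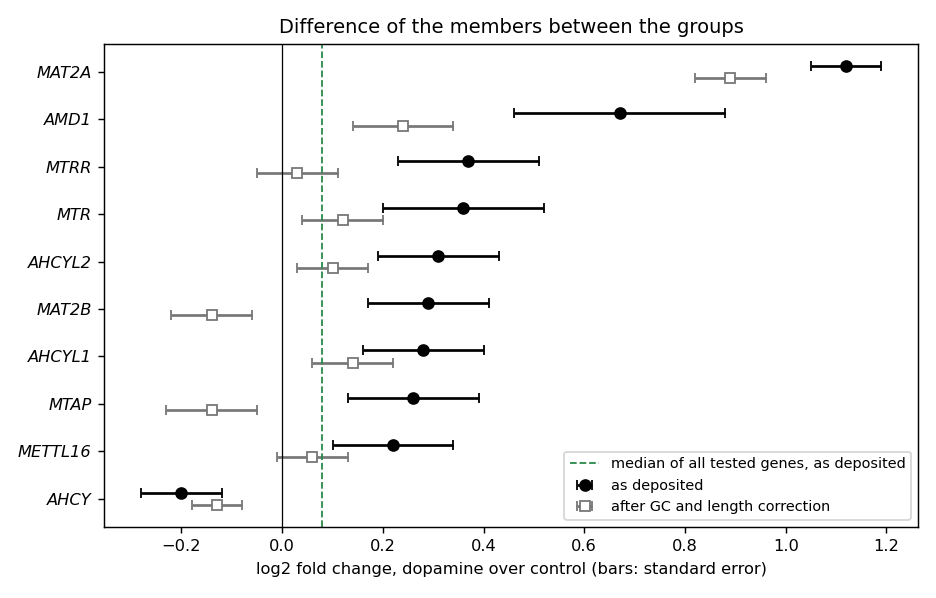
Log2 fold change of dopamine over control for each member (horizontal axis, bars are standard errors) as deposited (black circles) and after the correction for GC content and transcript length (open squares), with the median of all tested genes, 0.08, as a dashed line. MAT2A keeps 0.89 after the correction, and MAT2B and MTAP lie below 0.

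The genes around the cycle were taken from 7 lists with 63 genes. Of these, 61 were found in the table by symbol and 52 passed the filter. In limma none of the 52 passed an adjusted p of 0.05. With p under 0.05 and no adjustment, 14 of the 52 were higher with dopamine and 5 of the 52 lower, where 24.4% of all tested genes were higher and 8.05% lower. The median log2 fold change over the lists was 0.04, below the 0.08 of all tested genes. Once GC content and length were corrected for, 8 of the 52 were higher and 9 of the 52 lower by the same criterion. Of the 11579 genes with a GC value, 969 (8.37%) were higher and 979 (8.45%) lower. In both directions the share in the lists was the larger. Whether that excess goes beyond chance was not tested, nor was its cause. The count of 0 did not hold in every setting. Without control replicate 1, 10 of the 52 passed, beside 2177 of all 11791 tested genes. With sample quality weights 15 of the 52 passed, beside 2706 of all 11791.

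Folate enzymes supply the methyl group for remethylation, and 13 of 18 listed were tested, with 3 higher and 1 lower by that unadjusted criterion and a median log2 fold change of 0.00. MTHFD2, a mitochondrial enzyme of the folate cycle, averaged 10.6 ± 1.66 FPKM with dopamine and 7.24 ± 0.737 FPKM in control cells (SD, n = 3 each), a log2 fold change of 0.52 (SE 0.12) with an adjusted p of 0.110 in limma. GGH, which trims the glutamate tail of folates, averaged 5.62 ± 0.518 FPKM with dopamine and 3.82 ± 0.705 FPKM in control cells (limma adjusted p = 0.110). FPGS, which builds that tail, averaged 28.2 ± 1.92 FPKM with dopamine and 35.2 ± 1.53 FPKM in control cells, a log2 fold change of -0.32 (SE 0.08) (limma adjusted p = 0.110). The pair that acts on the folate tail thus had log2 fold changes of opposite sign. After the GC and length correction MTHFD2 stood at 0.16 (SE 0.06), GGH at 0.35 (SE 0.11) and FPGS at -0.14 (SE 0.05). The tested folate transporter genes SLC19A1, SLC46A1 and SLC25A32 had log2 fold changes of -0.16, -0.11 and 0.38. After that correction they stood at 0.01, -0.05 and 0.01.

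Transsulfuration carries homocysteine towards cysteine. Of 4 tested genes of this branch and of the betaine branch, unadjusted p lay under 0.05 for 1 higher and 1 lower gene. CTH, the enzyme that releases cysteine, averaged 1.89 ± 0.211 FPKM with dopamine and 1.11 ± 0.0824 FPKM in control cells, a log2 fold change of 0.56 (SE 0.13) (limma adjusted p = 0.110). CBS, the step before it, averaged 5.91 ± 0.386 FPKM with dopamine and 6.52 ± 0.445 FPKM in control cells (limma adjusted p = 0.368). MPST, which handles sulfur from cysteine, averaged 7.28 ± 0.628 FPKM with dopamine and 9.01 ± 0.382 FPKM in control cells (limma adjusted p = 0.112), and ALDH7A1, of betaine synthesis, 5.82 ± 0.607 FPKM with dopamine and 5.02 ± 0.417 FPKM in control cells (limma adjusted p = 0.240). With the correction CTH stood at 0.28 (SE 0.08), CBS at -0.02 (SE 0.09), MPST at -0.25 (SE 0.08) and ALDH7A1 at -0.02 (SE 0.06). The betaine methyltransferase genes BHMT and BHMT2 were not found in the table by symbol and have no value here.

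The polyamine and methionine salvage list had 13 tested genes, 4 higher and 3 lower by unadjusted p, with a median of 0.01. SAT1, which acetylates polyamines for breakdown or export, averaged 8.10 ± 0.481 FPKM with dopamine and 5.60 ± 0.664 FPKM in control cells, a log2 fold change of 0.50 (SE 0.11) (limma adjusted p = 0.110). AZIN1, the antizyme inhibitor, averaged 15.1 ± 2.15 FPKM with dopamine and 11.0 ± 1.83 FPKM in control cells (limma adjusted p = 0.110). SRM, spermidine synthase, which uses the product of AMD1, averaged 134 ± 7.70 FPKM with dopamine and 158 ± 7.60 FPKM in control cells, a log2 fold change of -0.24 (SE 0.08) (limma adjusted p = 0.111). ODC1, the other entry step of polyamine synthesis, averaged 145 ± 8.11 FPKM with dopamine and 146 ± 8.27 FPKM in control cells, a log2 fold change of -0.02 (SE 0.08). The corrected values were 0.31 (SE 0.07) for SAT1, 0.12 (SE 0.05) for AZIN1, -0.08 (SE 0.07) for SRM and -0.06 (SE 0.06) for ODC1. As deposited, AMD1 and the genes next to it in the pathway thus had log2 fold changes of both signs.

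Methionine enters cells through amino acid transporters, of which 6 were tested, 2 of them higher at an unadjusted p under 0.05 (median 0.18). SLC38A2, a transporter of small neutral amino acids, averaged 39.9 ± 6.66 FPKM with dopamine and 25.5 ± 7.24 FPKM in control cells (limma adjusted p = 0.110). SLC7A5, the light chain of the large neutral amino acid transporter, averaged 39.6 ± 4.68 FPKM with dopamine and 31.8 ± 1.81 FPKM in control cells, a log2 fold change of 0.30 (SE 0.10) (limma adjusted p = 0.111). Its heavy chain SLC3A2 averaged 17.7 ± 2.36 FPKM with dopamine and 15.2 ± 1.16 FPKM in control cells (limma adjusted p = 0.199). With GC content and length corrected for, SLC7A5 stood at 0.45 (SE 0.07) and SLC3A2 at 0.31 (SE 0.07), further from 0 than before, whereas SLC38A2 moved to 0.24 (SE 0.08).

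Of 6 tested genes of cobalamin supply 2 were higher at an unadjusted p under 0.05 (median -0.01). MMADHC, which directs cobalamin to its enzymes, averaged 20.4 ± 1.74 FPKM with dopamine and 13.9 ± 2.7 FPKM in control cells (limma adjusted p = 0.110). LMBRD1, a lysosomal exporter component, averaged 6.86 ± 0.652 FPKM with dopamine and 4.37 ± 1.21 FPKM in control cells (limma adjusted p = 0.110), and the uptake receptor CD320 41.6 ± 5.14 FPKM with dopamine and 47.8 ± 3.11 FPKM in control cells (limma adjusted p = 0.187). The log2 fold changes of MMADHC, LMBRD1 and CD320 were 0.55, 0.62 and -0.20 as deposited, and 0.26 (SE 0.09), 0.19 (SE 0.08) and -0.06 (SE 0.06) once corrected. Among 4 tested genes of donor transport, sensing and adenosine removal 1 was higher at an unadjusted p under 0.05 (median 0.25). It was ADK, which removes the adenosine that AHCY releases, at 8.12 ± 1.17 FPKM with dopamine and 6.13 ± 0.820 FPKM in control cells (limma adjusted p = 0.117). SLC25A26, the mitochondrial carrier of S-adenosylmethionine, averaged 2.88 ± 0.166 FPKM with dopamine and 2.34 ± 0.172 FPKM in control cells (limma adjusted p = 0.163), and C7orf60, also called SAMTOR, a sensor of the donor, 1.70 ± 0.280 FPKM with dopamine and 1.34 ± 0.251 FPKM in control cells (limma adjusted p = 0.276). The log2 fold changes of ADK, SLC25A26 and C7orf60 were 0.38, 0.25 and 0.25 as deposited, and 0.06 (SE 0.08), 0.17 (SE 0.10) and -0.18 (SE 0.10) once corrected.

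Of 6 tested factors known to bind or process MAT2A mRNA 1 was higher at an unadjusted p under 0.05 (median 0.12). That was YTHDC1, a nuclear reader of methylated adenosine, at 3.89 ± 0.806 FPKM with dopamine and 2.81 ± 0.495 FPKM in control cells (limma adjusted p = 0.136). The cleavage factor genes CPSF6 and NUDT21 averaged 7.75 ± 1.12 FPKM with dopamine and 6.31 ± 0.630 FPKM in control cells for CPSF6 (limma adjusted p = 0.154) and 14.6 ± 2.73 FPKM with dopamine and 11.9 ± 2.52 FPKM in control cells for NUDT21 (limma adjusted p = 0.223). CPSF7, ELAVL1 and HNRNPD had log2 fold changes of -0.12, -0.10 and -0.03 as deposited. With GC content and length corrected for, YTHDC1, CPSF6 and NUDT21 stood at 0.03 (SE 0.07), -0.15 (SE 0.09) and -0.13 (SE 0.06). CPSF7, ELAVL1 and HNRNPD then stood at -0.15 (SE 0.06), -0.31 (SE 0.09) and -0.47 (SE 0.15). The corrected median of the list was -0.15. By the same unadjusted criterion, 3 of the 6 were then lower with dopamine and 0 higher.

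**Figure D5:**
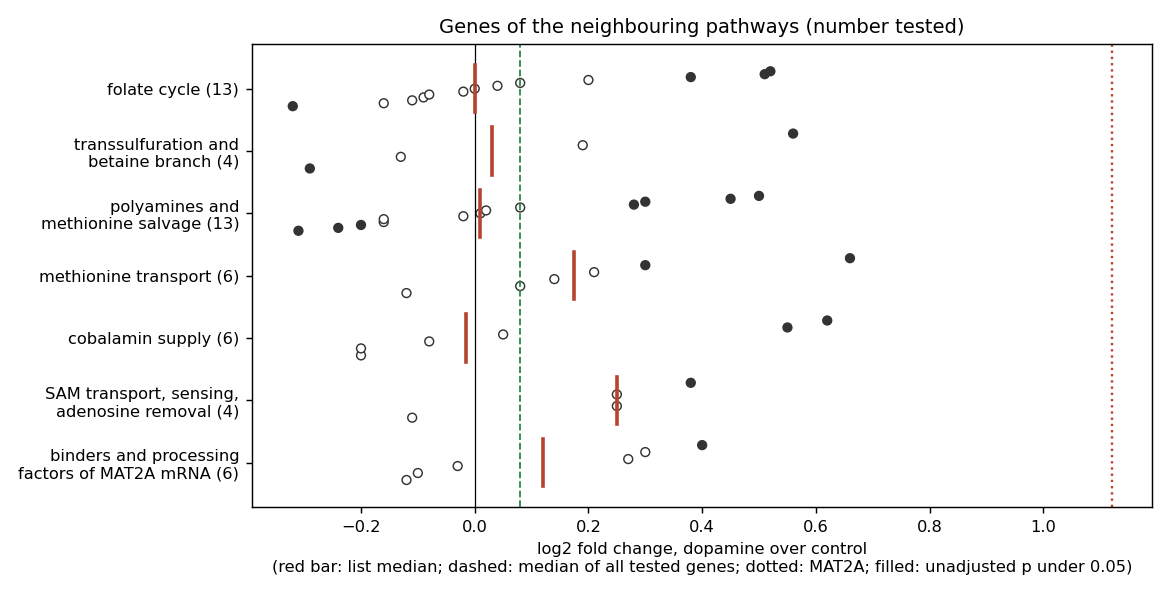
Log2 fold change of dopamine over control (horizontal axis) for the 52 tested genes of the 7 lists (rows), with filled points for an unadjusted p under 0.05, a red bar for each list's median, a dashed line at the median of all tested genes (0.08) and a dotted line at MAT2A (1.12). The highest gene of the lists stands at 0.66 and the lowest at -0.32. MAT2A was chosen by this same difference, so its place beyond them is a description only.

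The protein-coding genes whose pattern over the 6 libraries was most like that of MAT2A were HERPUD1, MUC13, HSPA5, GCLM and TXNRD1, with Euclidean distances between centred log2(FPKM + 0.5) profiles of 0.163, 0.292, 0.314, 0.397 and 0.400. HERPUD1, a gene of endoplasmic reticulum protein degradation, had a log2 fold change of 1.09 (SE 0.09), and HSPA5, an endoplasmic reticulum chaperone gene, one of 0.96 (SE 0.10). GCLM and TXNRD1, both of antioxidant defence, stood at 1.25 (SE 0.12) and 0.98 (SE 0.12). MUC13, a mucin gene, was low, at 1.81 ± 0.0629 FPKM with dopamine and 0.630 ± 0.164 FPKM in control cells. These genes were picked for likeness in the same libraries, so their values are a description only.

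The label was set against marker lists. All 8 adrenergic neuroblastoma markers passed the filter, with a summed level of 321 to 369 FPKM with dopamine and 320 to 365 FPKM in control cells, and so did all 6 mesenchymal markers, at 1150 to 1200 FPKM with dopamine and 1200 to 1320 FPKM in control cells. Most of the mesenchymal sum was VIM. Without overlap, PHOX2A (log2 fold change -0.25) and FOSL1 (-0.56) were lower with dopamine, and STMN2 (0.48) and SNAI2 (0.46) higher. The groups of the other markers in these 2 lists overlapped. The 4 epithelial markers summed to 91.8 to 106 FPKM with dopamine and 123 to 155 FPKM in control cells, nearly all of it KRT18, while EPCAM and CDH1 lay under 0.2 FPKM in each library. The leukocyte, endothelial and liver lists each summed to at most 0.124 FPKM in any library, with PTPRC and LYZ listed at 0 in 5 of 6. Those sums hold 3 of 4 leukocyte, 2 of 3 endothelial and 2 of 3 liver markers, without CD3E, PECAM1 and ALB. Nuclear-retained RNAs (4 of 5 listed, without MEG3) summed to 15.0 to 22.4 FPKM with dopamine and 9.64 to 15.2 FPKM in control cells. Most of that sum was TUG1, whose groups overlapped at a log2 fold change of 0.48. MALAT1 stood at 0.56 without overlap and NEAT1 at 0.37 with overlap, so all 3 that passed the filter had a higher mean with dopamine. After the GC and length correction TUG1, MALAT1 and NEAT1 stood at 0.18, 0.19 and 0.15. The part of these marker differences in the members' values was not tested.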

How the data were processed

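The authors deposited 1 table of FPKM values with hg19 coordinates. Per the labels' protocols, ribosomal RNA was removed from total RNA and stranded libraries were made. The submitters' processing notes name hg19, STAR 2.7.1a, DESeq2 1.40.2, HTSeq 0.11.2 and FastQC 0.11.9 without a role for any. No source used here gives the annotation, the strand setting or the way FPKM was made, so genes that overlap or have near copies are uncertain. FPKM divides by the library's total, so a few abundant genes can shift all others.

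Depth, recovered from the steps of low values in 2797 short pseudogenes taken as single exons (92.5 to 94.0% of values whole within 0.03), was 19422000 to 24221000 fragments. Library correlations were 0.957 to 0.994.

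Groups and replicate numbers came from the titles. Values were analysed as log2(FPKM + 0.5), which understates folds of low genes, where the mean FPKM reached 1. Groups were compared in R 4.3.3 by the two-sided moderated test of limma 3.58.1, its prior variance following intensity, without a replicate block and with a Benjamini-Hochberg threshold of 0.05. The test and the depth recovery were run on simulated data with known answers. The values simulated for the test had independent noise and no GC trend, unlike these libraries, so they do not show how it performs here. GC content, transcript length and strand came from GENCODE 29 by gene identifier (98.2% of tested genes, 10 of 10 members), with no coordinates taken from it. The correction subtracted a loess surface (span 0.5) of GC content and log2 length from every library. The labels do not say that a number marks a shared culture or day, so same-numbered libraries were not taken as pairs.

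Named genes were all members, called genes of each list or else its 3 with the smallest p, the 5 genes most like MAT2A by Euclidean distance, markers, and pseudogenes and overlapping genes of members. Other genes were chosen after their values were seen (CBS, ODC1, SLC19A1, SLC46A1, SLC25A32, CPSF7, ELAVL1, HNRNPD, MAT1A). The members and lists were chosen with earlier results of these data known.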

Additional observations from a re-analysis of the deposited data

How the results depend on the processing

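The MAT2A difference, for which the gene was chosen, was 0.89 to 1.15 on the log2 scale over 19 alternatives (1.08 to 1.15 with 1 library left out), which is a description of these values and no test. AHCY stayed below 0 in 19 settings (-0.31 to -0.11), and the other members kept their sign except MAT2B and MTAP, at -0.14 each after the GC and length correction and at -0.14 each with the replicate block added to it. The 12 calls over all genes became 6 with no filter on low values, 27 after quantile normalization (18 higher), 5 with no trend, 2706 with sample quality weights, 26 after the GC and length correction, 3 with the replicate block and 7 without both replicates numbered 3, and ran from 3 to 2177 when 1 library was left out. Leaving out both replicates numbered 3 was chosen after seeing the data. The cause of these changes was not tested. The lists' 0 calls became 4 for folate, 2 for transsulfuration, 4 for polyamines, 3 for transport and 2 for cobalamin with sample quality weights, and ran from 0 to 4, 0 to 1, 0 to 2, 0 to 1 and 0 to 2 in the same order when 1 library was left out. The difference in log2 ratio of MAT2A to MAT2B, 0.83, ran from 0.76 to 0.91 over the pseudocounts and left-out libraries. Scaling moved the median of all tested genes to -0.02 (median of ratios), -0.01 (quantile) or 0.10 (TPM), from 0.08. The labels do not say that a replicate number marks a shared culture or day, so the replicate block is only an alternative setting. Same-numbered libraries had correlations of deviations of -0.20, 0.28 and -0.37 for numbers 1, 2 and 3, and not every library correlated best with its own number. Those deviations were taken within each group, where the libraries also differed in GC trend, so they cannot tell whether a culture was shared. Shallow genes such as MTRR have a larger relative counting error than MAT2A.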
